A study of Mus musculus with 24 samples.

Results

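Cirbp and Rbm3 encode small RNA-binding proteins that join an RNA recognition motif to a glycine-rich tail. Mild cooling raises both, and warming lowers them, so their mRNA follows the daily swing of body and brain temperature, which in mice is lower in sleep than in waking. CIRBP shapes polyadenylation site choice and with it the amplitude of clock gene rhythms, and RBM3 favours translation and the recovery of synapses after cooling. Of the 45101 probe sets on the arrays, 1 was annotated to Cirbp alone. No probe set was annotated to Rbm3 alone, but 2 carried both Rbm3 and its pseudogene Rbm3-ps, and the brighter of these was used as the readout. It is written Rbm3/Rbm3-ps because RNA of the parent gene and of the pseudogene cannot be told apart on it. Cirbp was selected on its bound level, known from earlier work on these arrays to be lower in waking and after sleep deprivation than in sleep, and Rbm3 was taken as its cold-inducible partner. The bound differences of either gene from sleep, and what is built on them, are therefore given as a description, with no test.

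RNA came from the cerebral cortex of adult mice heterozygous for a transgene in which the Aldh1l1 promoter, active mainly in astrocytes, drives ribosomal protein L10a fused to eGFP. All 6 groups carried this transgene, and no group lacked it. Ribosomes pulled down by the tag gave the bound fraction, with 1 animal per array and 6 arrays for each of sleep, waking and sleep deprivation (18 in all). The supernatant, which holds RNA of the remaining cells and any astrocyte RNA not pulled down, gave the unbound fraction. It was hybridized from pools of 3 animals (animals 1 to 3 and 4 to 6, so 2 arrays per state and 6 in all). For sleep, tissue was taken at 3 to 5 pm from mice that had slept without interruption for over 45 min and for 75% or more of the last 6 to 7 h. For waking it was taken at 3 to 5 am from mice awake for over 1 h without a break and for 70% or more of that span. Sleep-deprived mice had been awake for most of the dark phase and were then kept awake with unfamiliar objects for 4 h of the light phase. Sleep and waking therefore also differ in clock time, and for that comparison state and time of day cannot be told apart. No clock time is given for the sleep-deprived tissue, taken after 4 h of the light phase. Waking and sleep deprivation may therefore also differ in time of day, as may sleep and sleep deprivation. There too, state and time of day cannot be told apart. In such bulk RNA, fewer cells of a type and less RNA per cell cannot be told apart either.

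The pull-down enriched astrocyte RNA. Aldh1l1 was 13.2-fold higher in the bound than in the unbound fraction, and all 12 astrocyte markers were higher and 9 of 10 neuron markers lower in bound RNA (limma, adjusted p under 0.05), in a comparison where 42.2% of all features were higher and 27.2% lower. All values are log2 RMA values, on which a difference of 1 is a doubling, and array medians ran from 5.50 to 5.87. Bound medians ran from 5.65 to 5.73 in sleep, 5.80 to 5.85 in waking and 5.81 to 5.87 after sleep deprivation. Exact ties were found in all 48 array pairs within groups (52 to 2248 probe sets) and in 0 of 228 pairs between groups, and it is not stated which arrays were normalized together. If groups were normalized separately, differences between groups and normalization could not be told apart. This was not tested. Differences are given relative to the median gene of each comparison, which itself moved by 0.09 for waking and 0.11 for sleep deprivation against sleep in the bound fraction, and by 0.30 and 0.18 in the unbound fraction. Limma p-values, also those beside fold changes, test the difference as fitted, before the median gene is subtracted.

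In the RefSeq annotation (GRCm38.p6) Cirbp spans chr10:80165990-80172786, Rbm3 lies on chromosome X and Rbm3-ps on chromosome 1. The gene is on the plus strand. The RefSeq promoter sequences hold 2 windows for it, each before a transcript start that lies inside this span, downstream of its first base. The 250 bases before the first of these starts, chr10:80167589-80167838, are shown because they carry the letters of the mild cold-responsive element, a short sequence described for cold induction of this gene. Capitals mark that element (TCCCCGCC) and the GC boxes (GGGCGG, or its reverse complement), the binding sequence of Sp1.
Cirbp: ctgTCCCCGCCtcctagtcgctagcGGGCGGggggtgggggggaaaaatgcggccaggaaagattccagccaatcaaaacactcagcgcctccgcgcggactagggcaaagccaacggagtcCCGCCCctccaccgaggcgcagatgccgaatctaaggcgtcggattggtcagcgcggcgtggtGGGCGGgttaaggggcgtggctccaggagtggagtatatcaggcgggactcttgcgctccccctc
The cold-responsive letters stood once, 247 to 240 bases before the start, on the plus strand. The 3 GC boxes began 225, 128 and 65 bases before it, and none overlapped the cold-responsive letters. Among 32851 mouse promoter windows of the same length, 4.64% held TCCCCGCC on either strand and 32.7% held GGGCGG. The CCAAT box, searched as CCAAT on both strands, stood at 2 places in the same window, and 33.8% of windows held it. The heat shock element (searched as GAANNTTC, in 6.69% of windows), the E-box (CACGTG, 6.02%) and the D-box (TTATGTAA, 0.819%) were not among these letters. The window before the second of these starts held 4 GC boxes and no cold-responsive letters. These matches describe the sequence and do not show binding.

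Cirbp RNA in the bound fraction was highest in sleep, lowest in waking and in between after sleep deprivation. This fraction is enriched for astrocyte RNA but is not astrocyte RNA alone. The mean level of 10 neuron markers in it ran from 9.83 to 10.42 in sleep. The part of RNA from other cells in the Cirbp values was not tested. In the bound fraction the 6 sleep arrays ran from 11.10 to 11.47 with a median of 11.30. The 6 waking arrays ran from 9.08 to 9.86 with a median of 9.65. The 6 sleep-deprivation arrays ran from 9.68 to 10.79 with a median of 10.12. Every waking and every sleep-deprivation array was therefore below every sleep array, while waking and sleep deprivation overlapped. The means were 11.28 ± 0.13 in sleep, 9.55 ± 0.31 in waking and 10.20 ± 0.38 after sleep deprivation (SD, n = 6 each).

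From sleep to waking Cirbp fell 3.54-fold (log2 -1.83 ± 0.17, difference ± SE of the limma model). Of 18194 features tested, 2.14% were lower past the threshold, and 1.24% were lower with no overlap between the groups. Among the 390 lower genes Cirbp ranked 4 by size. After sleep deprivation Cirbp was 2.30-fold below sleep (log2 -1.20 ± 0.17), where 2.03% of features were lower past the threshold and 1.02% lower with no overlap. Its lowest sleep array stood 1.24 above the highest waking array but only 0.31 above the highest sleep-deprivation array. Nothing is read from these shares, since these values led to the choice of Cirbp.

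Cirbp was 1.54-fold higher after sleep deprivation than in waking (log2 0.62 ± 0.17, limma adjusted p = 0.0248), and 4.17% of features were higher past the threshold there. Both sides are bound levels, on which Cirbp was selected, so this p is not independent of that choice. The difference also depended on the arrays used. Without waking animal 1 or 3 or sleep-deprived animal 2 or 3 the call was lost, at log2 0.57, 0.53, 0.57 and 0.50, and at adjusted p = 0.116 once dim genes, those under the median gene level, were dropped.

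The Rbm3/Rbm3-ps probe set followed the same order with smaller steps. In the bound fraction the sleep arrays ran from 11.05 to 11.82 (median 11.45), the waking arrays from 10.01 to 11.14 (median 10.42) and the sleep-deprivation arrays from 10.40 to 11.04 (median 10.76). A single waking array, that of animal 4, reached into the range of sleep, and the highest sleep-deprivation array fell just short of the lowest sleep array, by 0.018. The means were 11.45 ± 0.25 in sleep, 10.45 ± 0.42 in waking and 10.70 ± 0.26 after sleep deprivation (SD, n = 6 each).

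Waking was 2.13-fold below sleep (log2 -1.09 ± 0.18) and sleep deprivation 1.81-fold below sleep (log2 -0.85 ± 0.18). Sleep deprivation and waking did not differ past the threshold: log2 0.23, with a 95% interval from -0.14 to 0.61 (limma adjusted p = 0.513). The second probe set that carries both symbols gave 1.77 to 3.08 on the 24 arrays, near the floor of the scale (percentile 3.64 of all probe sets, against 95.3 for the brighter set). On that dim set the waking difference was -0.43 and the sleep-deprivation difference -0.31, with the sign of the brighter set.

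**Figure D1:**
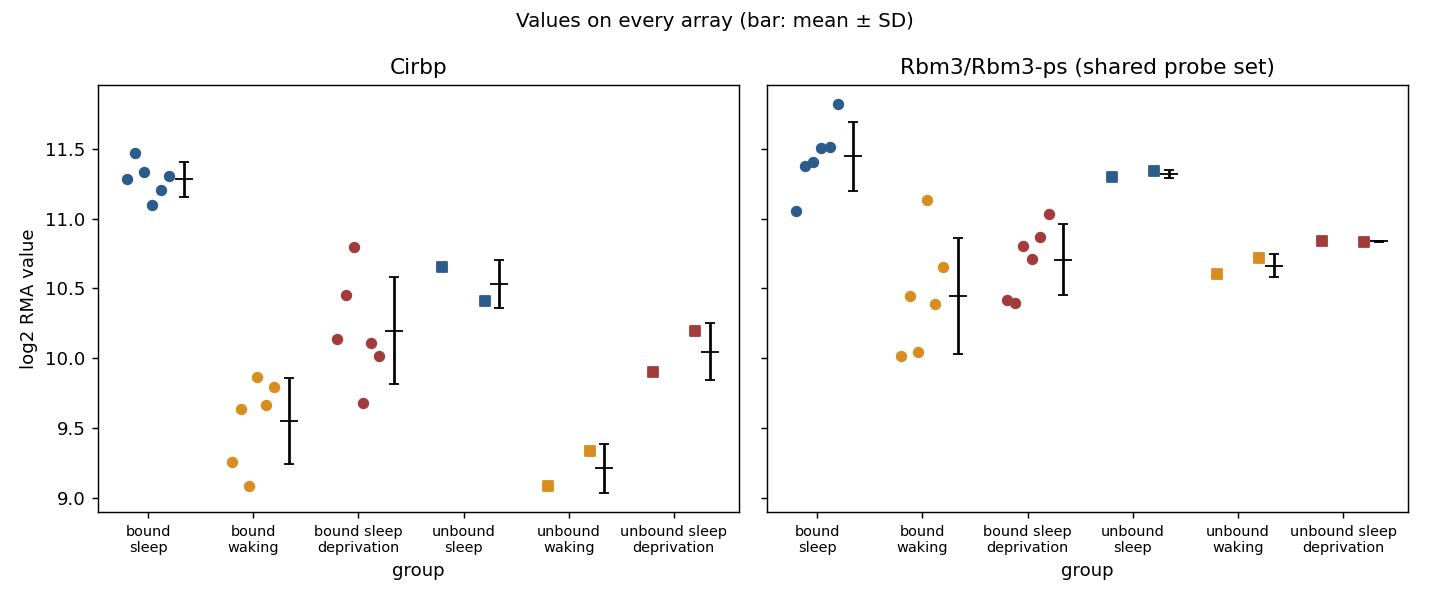
Log2 RMA value of Cirbp (left) and of the brighter Rbm3/Rbm3-ps probe set (right) on every array, by group of fraction and state. Circles are single animals of the bound fraction, squares are pools of the unbound fraction, and black bars give the mean ± SD. Both genes were highest in sleep in either fraction, with bound means of 11.28 for Cirbp and 11.45 for Rbm3/Rbm3-ps.

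The animals formed 2 sets, 1 to 3 and 4 to 6, which are also the sets pooled for the unbound arrays. The bound arrays of the sets stood apart: 7944 of 18194 features differed between them past the threshold. Rbm3/Rbm3-ps was higher in animals 4 to 6 by log2 0.40 ± 0.11 over the 3 states (adjusted p = 0.00745), and Cirbp was not shown to differ (log2 -0.09, adjusted p = 0.557). Within animals 1 to 3 the waking difference was -2.13 for Cirbp and -1.20 for Rbm3/Rbm3-ps. Within animals 4 to 6 it was -1.53 and -0.99. The sleep-deprivation difference within animals 1 to 3 was -1.01 for Cirbp and -0.84 for Rbm3/Rbm3-ps, and within animals 4 to 6 it was -1.40 and -0.87. Each difference from sleep had the same sign in both sets.

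Sleep deprivation against waking gave unlike sizes for Cirbp in the sets. In animals 1 to 3 the means were 10.46 after sleep deprivation and 9.32 in waking, and in animals 4 to 6 they were 9.93 and 9.77 (n = 3 each). The difference was 1.11 in the first set (adjusted p = 0.0244) and 0.13 in the second (adjusted p = 0.637). These are bound levels, on which Cirbp was selected, so neither p is independent of that choice. The gap between the sets was -0.99 ± 0.25 but did not pass the threshold over all features (adjusted p = 0.557), and 0 of 18194 features did in that limma test (1061 at an unadjusted p under 0.05, Cirbp among them). What set the animals apart is not given in the labels, and its part in these values was not tested.

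**Figure D2:**
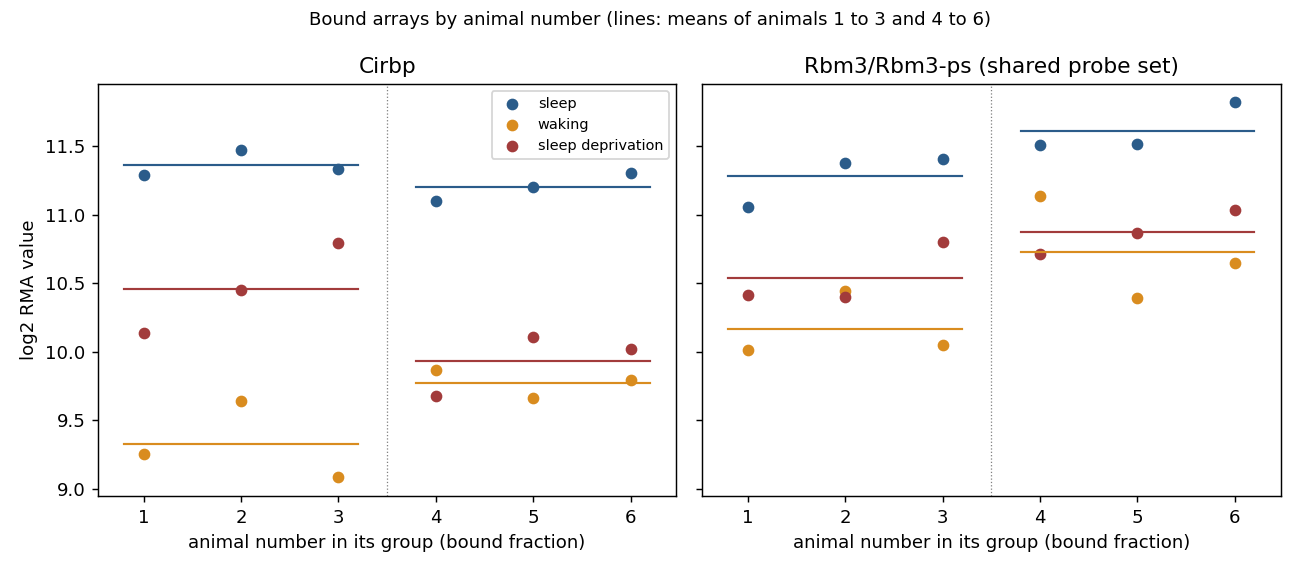
Log2 RMA value of Cirbp (left) and Rbm3/Rbm3-ps (right) on the 18 bound arrays against the animal number, coloured by state, with lines at the means of animals 1 to 3 and 4 to 6. For Cirbp the waking and sleep-deprivation means lie apart in animals 1 to 3 (9.32 and 10.46) and close together in animals 4 to 6 (9.77 and 9.93), and all Rbm3/Rbm3-ps means are higher in animals 4 to 6.

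The unbound fraction is not RNA of other cells alone. The mean level of the 12 astrocyte markers there ran from 9.20 in sleep to 9.78 in waking. In this fraction Cirbp gave 10.65 and 10.41 in sleep, 9.08 and 9.33 in waking, and 9.90 and 10.19 after sleep deprivation. The order of the states was that of the bound fraction, and no 2 states overlapped. The pools and the single bound arrays carry the same animal numbers, so the fractions are not independent sets of mice. Waking was 3.07-fold below sleep (log2 -1.62 ± 0.19, or -1.32 as fitted, limma adjusted p = 0.0342). There 0.605% of features were lower past the threshold and 9.71% lower with no overlap. This call was lost when the pool number was a block (adjusted p = 0.0654), after quantile normalization was repeated over all arrays (0.0524) and with arrays centred on the median gene (0.0552), at the same size. It was also lost when any 1 of the 6 arrays was left out (-1.76 to -1.48). The difference for sleep deprivation was -0.66 against sleep (adjusted p = 0.19) and 0.96 against waking (adjusted p = 0.0921). In these comparisons 1.87% and 0.758% of features passed the threshold, and 15.6% and 15.7% lay apart without overlap in the direction of Cirbp.

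Rbm3/Rbm3-ps gave 11.30 and 11.34 in unbound sleep, 10.61 and 10.72 in waking, and 10.84 and 10.83 after sleep deprivation. The pools of each state lay close together and no 2 states overlapped. Of all features, 9.71% were lower without overlap in waking than in sleep. After sleep deprivation 15.6% lay below sleep and 15.7% above waking without overlap, so nothing is read from it. The waking difference was -0.96 ± 0.15 (-0.66 as fitted, adjusted p = 0.0546). The sleep-deprivation difference was -0.66 ± 0.15 (-0.48 as fitted, adjusted p = 0.12). Sleep deprivation lay 0.30 above waking (0.17 as fitted, adjusted p = 0.562). With 2 pools per state these 3 did not pass the threshold.

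The state effects were set side by side between fractions. For Cirbp the waking effect in bound minus that in unbound RNA was -0.20, with a 95% interval from -0.87 to 0.47, and the sleep-deprivation effect differed by -0.54, from -1.21 to 0.13. For Rbm3/Rbm3-ps the same differences were -0.13, from -0.82 to 0.56, and -0.19, from -0.88 to 0.50. All 4 intervals include 0, and since the bound side of each value led to the choice of the pair no test is given.

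**Figure D3:**
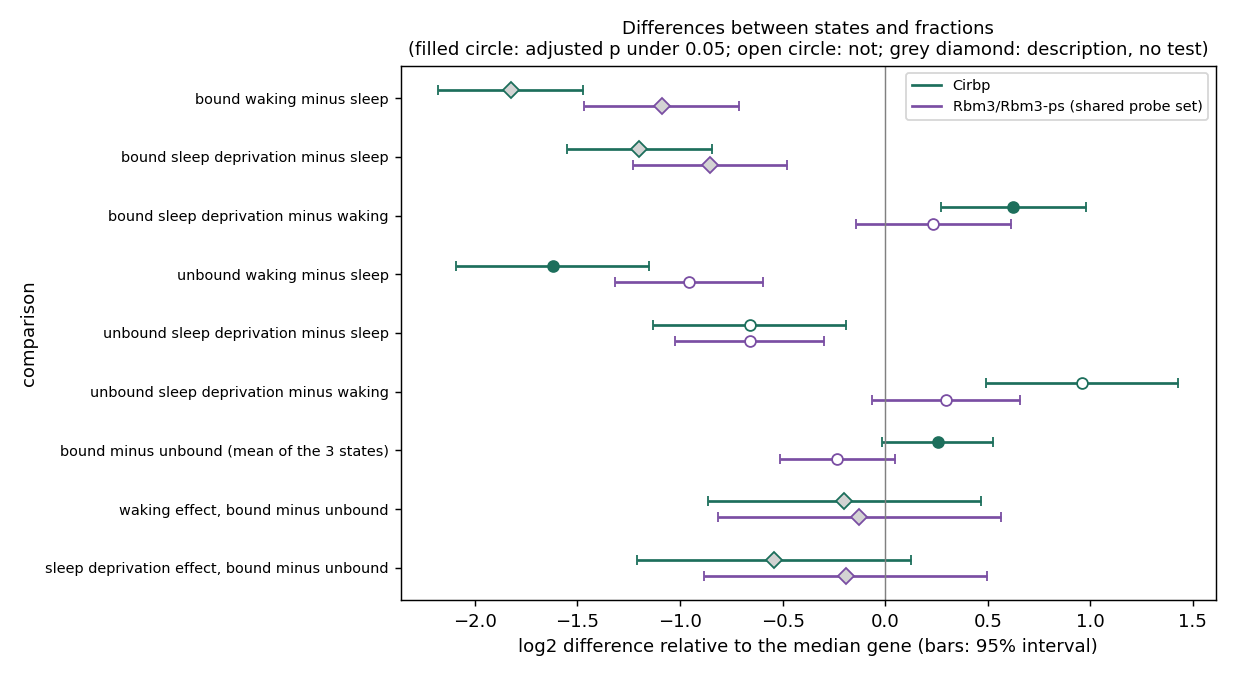
Log2 differences relative to the median gene for Cirbp (green) and Rbm3/Rbm3-ps (purple) in 9 comparisons of states and fractions, with 95% intervals. Filled circles passed an adjusted p of 0.05, computed before the median gene is subtracted, open circles did not, and grey diamonds are a description with no test. The filled circle of Cirbp for bound sleep deprivation against waking rests on arrays by which Cirbp was selected, as in part does every Cirbp value between fractions. The falls from sleep to waking are -1.83 and -1.09 in the bound and -1.62 and -0.96 in the unbound fraction.

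The level itself differed little between fractions. Over the 3 states Cirbp was 1.19-fold higher in bound RNA (log2 0.26 ± 0.13 relative to the median gene, 0.42 as fitted, adjusted p = 0.00795), in a comparison where 42.2% of features were higher. This call was lost with quantile normalization (log2 0.25, adjusted p = 0.113) and with arrays centred on the median gene (adjusted p = 0.522). The interval relative to the median gene ran from -0.02 to 0.53, so it held both signs. Within sleep alone Cirbp was higher in bound RNA by 0.55, where 33.7% of features were higher past the threshold. The bound and unbound arrays did not overlap there, as for 37.2% of features in this direction. In waking (0.28) and after sleep deprivation (-0.07) they overlapped. The bound level in each state led to the choice of Cirbp, so the values for single states carry no test. The mean over the 3 states rests on the same bound levels, so its p-values are not independent of that choice. Rbm3/Rbm3-ps lay -0.23 from the median gene between fractions (-0.07 as fitted, adjusted p = 0.643 for the fitted value).

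By group mean, Cirbp fell in the order bound sleep (11.28), unbound sleep (10.53), bound sleep deprivation (10.20), unbound sleep deprivation (10.05), bound waking (9.55) and unbound waking (9.21). Of these neighbours, bound and unbound sleep did not overlap, as for 37.2% of features in this direction. Unbound sleep deprivation and bound waking did not overlap either, but the share over all features was not counted there. The other neighbours overlapped. For Rbm3/Rbm3-ps the order was bound sleep (11.45), unbound sleep (11.32), unbound sleep deprivation (10.84), bound sleep deprivation (10.70), unbound waking (10.66) and bound waking (10.45). Here the arrays of unbound sleep and unbound sleep deprivation did not overlap, as for 15.6% of features in this direction, and those of all other neighbours overlapped. With 2 pools in each unbound group, nothing is read from these gaps. In both orders the fractions of a state stood next to each other.

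The size of the change was compared between the genes within each array. On each bound array the Cirbp value minus the Rbm3/Rbm3-ps value ran from -0.51 to 0.23 in sleep, from -1.27 to -0.73 in waking and from -1.03 to 0.05 after sleep deprivation. Sleep and waking did not overlap. The mean was -0.16 ± 0.30 in sleep, -0.90 ± 0.20 in waking and -0.51 ± 0.49 after sleep deprivation (SD, n = 6 each). Waking lay -0.74 from sleep and sleep deprivation -0.35 from sleep, values that share the contrast by which Cirbp was picked and are given with no test. Sleep deprivation was not shown to differ from waking (0.39, two-sided exact permutation test, p = 0.119, adjusted p = 0.171 over 3 comparisons). The adjustment also held the p-values of the differences from sleep, which are not used here. This p too rests on bound levels on which Cirbp was selected. With the mean of both Rbm3/Rbm3-ps probe sets, the dim one included, sleep deprivation lay -0.62 from sleep.

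Across the 6 animals of a state the genes were not shown to vary together. In waking Pearson's r was 0.886 (exact permutation p = 0.0111, adjusted p = 0.0667 over 6 values) and Spearman's rho 0.886 (adjusted p = 0.1). Without the 2 animals farthest from the median of Cirbp, r was 0.927 in waking, -0.02 in sleep and -0.74 after sleep deprivation. All 3 waking animals of set 4 to 6 had higher Cirbp than all of set 1 to 3, so this r also spans the gap between the sets. In sleep r was -0.16 and after sleep deprivation -0.16, with permutation p = 0.803 and 0.767.

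The genes whose 6 group means ran closest to those of each member were found among 8836 genes of at least median level, by the root mean square distance between centred means. For Cirbp they were Man2c1 (distance 0.32), an alpha-mannosidase, Rbm3/Rbm3-ps (0.39), the splicing factor Srsf5 (0.43), Rasgrp2 (0.43), an exchange factor for the small GTPase Rap1, and Fam227b (0.48). Cirbp itself moved by 0.67 around its mean on this measure, so the matches are loose. For Rbm3/Rbm3-ps they were Srsf5 (0.13), Map1s (0.21), Nckipsd (0.22), Rbmx (0.23), a nuclear protein with an RNA recognition motif and a glycine-rich region like those of the cold-inducible pair, and Reep6 (0.24). Cirbp ranked only 353 in that list, at 0.39, since its swings were larger. Rbm3/Rbm3-ps itself moved by 0.36 on this measure, so its matches beyond Srsf5 are loose too. Group means also hide the spread of single arrays. In bound sleep the SD was 0.88 for Map1s, 0.55 for Nckipsd and 0.89 for Fam227b (n = 6 each).

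Srsf5, close to both, had bound means of 10.57 ± 0.30 in sleep, 9.82 ± 0.36 in waking and 10.21 ± 0.11 after sleep deprivation (SD, n = 6). Its bound differences from sleep were -0.84 ± 0.16 in waking and -0.48 ± 0.16 after sleep deprivation. Those of Reep6 were -1.06 and -1.04, but -0.79 and -0.57 in animals 4 to 6 alone. Man2c1 lay -0.91 from sleep in waking, with -0.24 in animals 1 to 3 and -1.60 in animals 4 to 6. Rbmx lay -0.48 and -0.38 from sleep. These genes were picked for a pattern that holds these differences, so they carry no test. When distance was taken over the 18 bound arrays instead, Rbm3/Rbm3-ps and Srsf5 headed the list for Cirbp, 2 of its 5 genes were kept, and 1 of 5 was kept for Rbm3/Rbm3-ps (Srsf5). All these genes were measured on the same arrays, so likeness carries no p. Of the 7 with a promoter window in RefSeq, 1 (Rasgrp2) held the cold-responsive letters.

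**Figure D4:**
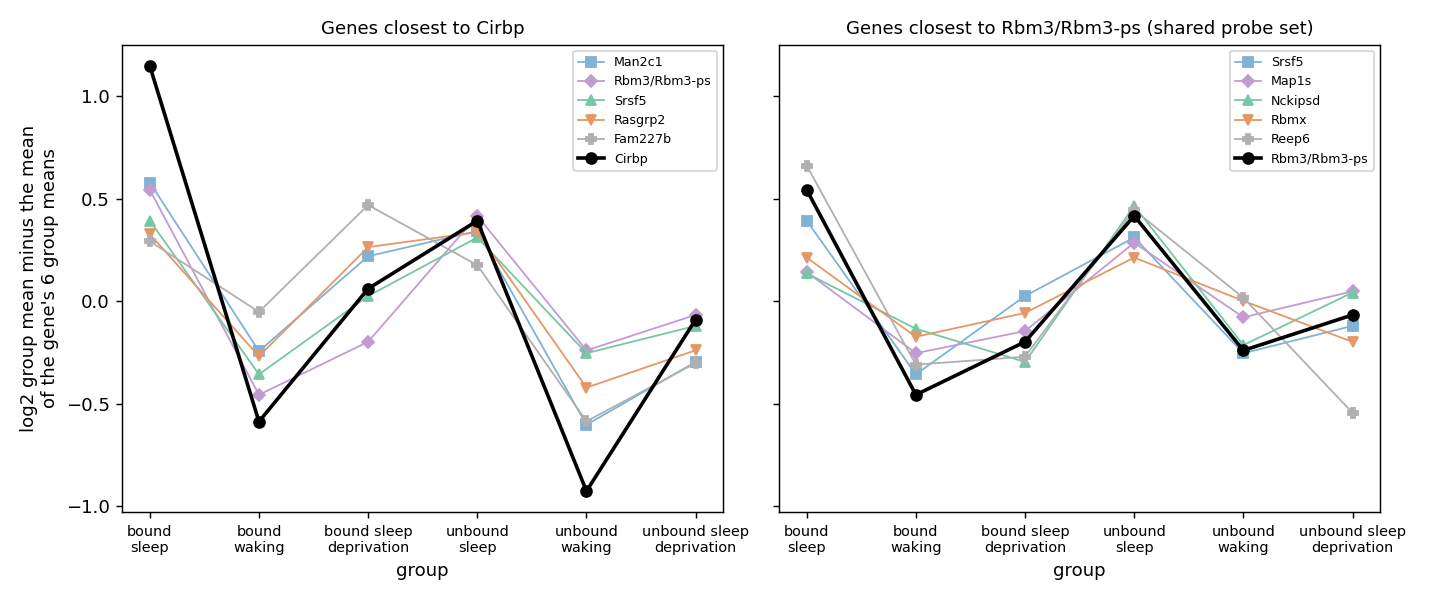
Group means, each gene centred on the mean of its 6 group means (log2), for Cirbp (left) and Rbm3/Rbm3-ps (right) in black with the 5 closest genes in colour. The fall of Cirbp from 11.28 in bound sleep to 9.55 in bound waking is steeper than that of its neighbours, while Srsf5 runs within 0.13 of Rbm3/Rbm3-ps on average.

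Genes that act on the cold-inducible pair were looked at next. Of 13 measured genes for upstream factors, such as the promoter factor Sp1, the splicing kinases Clk1 and Clk4, the splicing factor Hnrnph1 and the channel Trpv4, 0 were lower in bound RNA in either state, and 1 was higher in waking, where 9.07% of all features were higher and 2.14% lower. After sleep deprivation 12.3% were higher and 2.03% lower. This single gene in waking was Srpk1, a kinase of splicing factors (1.28-fold, adjusted p = 0.0235), a call lost with quantile normalization (adjusted p = 0.0648) and with centring (0.074), and without the dim genes (0.104). The median of the list was -0.04 in waking against 0 for all genes. In 0 of the 13 did sleep deprivation differ from sleep past the threshold. Hnrnph1, which controls the splicing of Rbm3 with temperature, had differences of -0.04 and 0.11.

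Of 11 measured genes for targets and partners of the pair, 0 were lower and 1 was higher in bound RNA in each state, against 9.07% of all features higher in waking and 12.3% after sleep deprivation. It was Tert, a telomerase subunit (1.83-fold in waking, adjusted p = 0.00072, and 1.40-fold after sleep deprivation, adjusted p = 0.0175). Its level was low, with group means from 3.05 to 4.01 in bound RNA (percentile 11.5 of all genes), and with the mean of its probe sets the adjusted p was 0.42 in waking and 0.505 after sleep deprivation. Rtn3, an endoplasmic reticulum shaping protein and effector of RBM3 at synapses, had differences of 0.11 and 0.01, and the clock gene Clock, a target of CIRBP, 0.38 and 0.62 (adjusted p = 0.375 and 0.11).

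Heat-inducible genes, which answer temperature in the opposite direction, were led by the chaperone partners of HSP90 and HSP70. Of 20 measured, 2 were higher and 0 lower in waking (9.07% of all features were higher), and 3 were higher and 0 lower after sleep deprivation (12.3% of all features higher). Hsph1, a large cytosolic chaperone, had means of 10.42 ± 0.47 in sleep, 11.31 ± 0.25 in waking and 11.39 ± 0.31 after sleep deprivation (SD, n = 6). It rose 1.74-fold in waking (adjusted p = 0.00666) and 1.81-fold after sleep deprivation (adjusted p = 0.00276). Chordc1, an HSP90 partner, rose 1.53-fold and 1.57-fold (adjusted p = 0.0149 and 0.00706), and Ahsa1, the activator of the HSP90 ATPase, rose 1.29-fold after sleep deprivation (adjusted p = 0.00422). In waking, Chordc1 did not pass without the dim genes (adjusted p = 0.0732) and Hsph1 did not pass in animals 1 to 3 alone (adjusted p = 0.0526). Hspa1b, the inducible HSP70, was higher by 1.21 and 1.00 with a wide spread in sleep (2.76 to 5.25), and did not pass (adjusted p = 0.0867 and 0.133). The list medians were 0.20 and 0.16, against 0 for all genes. The share past the threshold was close to that of all features, so nothing is read from it.

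Other RNA-binding proteins of like build formed the last lists. Of 13 measured proteins with an RNA recognition motif, 0 were lower in either state, and 1, the Rbmx retrogene Rbmxl1, was higher after sleep deprivation (1.26-fold, adjusted p = 0.00237), where 12.3% of all features were higher and 2.03% lower. Of 7 measured genes of the cold shock domain family, whose name is shared but whose fold differs, 0 passed in waking and 1, Lin28a, passed after sleep deprivation (1.18-fold, adjusted p = 0.0464) at a level near the floor (percentile 4.88 of all genes), a call lost with quantile normalization (adjusted p = 0.369). In the unbound fraction the waking comparison called 2 of 13 regulators, 3 of 11 targets and 4 of 20 heat-inducible genes higher, and 0 of these lists lower. There 5.71% of features were higher and 0.605% lower. The genes called higher included Hspa1b (2.80-fold, adjusted p = 0.0315), Hnrnph1 (1.49-fold, adjusted p = 0.0388) and Clock (1.38-fold, adjusted p = 0.0455). After quantile normalization was repeated over all arrays limma called 0 features in that comparison, these genes included. In unbound sleep deprivation against waking 1 of 20 heat-inducible genes, Hspe1, was lower, where 0.758% of features passed. That call was lost when any 1 array was left out.

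Marker genes were read beside the fall of the pair, against 9.07% of all features higher and 2.14% lower in waking and 12.3% higher and 2.03% lower after sleep deprivation. In waking against sleep in bound RNA, 2 of 12 astrocyte markers were higher and 0 lower, and the mean level over the 12 ran from 12.33 to 12.44 in sleep and 12.37 to 12.58 in waking. Of 10 neuron markers 0 passed (9.83 to 10.42 in sleep and 9.78 to 10.37 in waking), and after sleep deprivation 1 was lower. The 5 choroid plexus and ependymal markers spread widely, from 6.32 to 9.48 in sleep, 5.34 to 9.51 in waking and 5.67 to 9.13 after sleep deprivation, with median differences of -0.94 and -1.18, and 0 of the 5 passed. The 5 pericyte and smooth muscle markers had 1 lower in each state, and the 2 measured red blood cell markers had 1 and 2 higher. Oligodendrocyte (7 measured), microglia (7) and endothelial (6) markers had 1 member each higher in waking and 0 lower. The 5 meningeal and fibroblast markers had 0 past the threshold in either state, with median differences of -0.44 in waking and -0.32 after sleep deprivation. The part of these shifts in the values of Cirbp and Rbm3/Rbm3-ps was not tested.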

How the data were processed

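RNA was measured on Affymetrix mouse genome arrays in 24 samples, 6 groups of fraction by state. The deposited values are log2 RMA values (background-corrected, quantile-normalized and summarised by probe set by the authors), per the submitters' processing notes. The RMA version is not given in the sources used here, nor which arrays were normalized together. Of 45101 probe sets, 64 were controls, 34945 had 1 gene symbol in the array annotation, 932 several and 9160 none. Of those with 1 symbol, 34741 matched a RefSeq gene ID. For each of 18193 genes the probe set brightest on average was kept. The brighter Rbm3/Rbm3-ps probe set, which carries 2 symbols, was added as feature 18194, a departure from the planned table of genes with 1 symbol.

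Differences were tested with limma 3.58.1 under R 4.3.3 (lmFit, eBayes), with Benjamini-Hochberg adjustment over all 18194 features and a threshold of 0.05. States were compared within a fraction (18 bound arrays, 6 unbound arrays) and fractions over all 24 arrays. Intervals are 95% intervals of the fit, shifted by the median gene. The within-array difference of the genes was tested by exact permutation (scipy 1.17.1). The number of arrays limits the precision, and unbound arrays are pools. The fit was tested on simulated data. Promoter letters come from RefSeq (GRCm38.p6), with matches sought in the 250 bases before the start. A planned search for relatives by protein sequence was not run.

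The genes named were Cirbp, Rbm3, the 5 genes closest to each by group means, and members of fixed lists. The members and lists were chosen with earlier results of these data known. The main models held no block. Same-numbered animals of different bound groups deviated together (r of 0.268 to 0.530 over 18 pairs). Replicate number entered only as an alternative setting, the replicate block, and the main tests were not paired. Animals of different numbers reached 0.532 (from -0.504, over 90 pairs), and pairing is not told apart from the animal sets. Same-numbered unbound pools did not deviate together (0.001 to 0.029 over 6 pairs). Other settings were the replicate block, repeated quantile normalization, centring, leaving out dim genes, the mean of probe sets or every probe set, an intensity trend, array weights, other arrays for the spread, each animal set alone and each array left out. The animal set as a term, the differences between sets, the comparison of fractions within each state and the settings for list genes were added after the data were seen. Figures were drawn with matplotlib 3.10.9.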

Additional observations from a re-analysis of the deposited data

How the results depend on the processing

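With the replicate number as a block, which pairs the bound animals by number, Cirbp after sleep deprivation against waking stayed past the threshold (0.62, adjusted p = 0.0362), and Rbm3/Rbm3-ps did not reach it (0.23, adjusted p = 0.236). Under every setting the p of Cirbp in this comparison rests on bound levels by which it was selected. In unbound waking, Cirbp lost its call under the block (-1.62, adjusted p = 0.0654). It was also lost with quantile normalization (-1.62), centring (-1.62), the spread of the groups compared (-1.62, adjusted p = 0.0691) and each array left out (-1.76 to -1.48). Cirbp after sleep deprivation against waking lost its call with dim genes left out (0.63), the spread of the groups compared (0.62, adjusted p = 0.0754), animals 4 to 6 (0.13) and 4 of the 18 arrays left out singly (all 18 gave 0.50 to 0.73). The bound differences of Rbm3/Rbm3-ps from sleep, given with no test, were -0.99 and -0.87 in animals 4 to 6.

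Calls were gained for Rbm3/Rbm3-ps in unbound waking with dim genes left out (-0.98, adjusted p = 0.0439) and an intensity trend (-0.96, adjusted p = 0.0124). The trend also gave calls to its unbound sleep deprivation (-0.66, adjusted p = 0.0335) and to Cirbp against waking (0.96, adjusted p = 0.0394). Between fractions Cirbp lost its call with quantile normalization (0.25) and centring (0.26), and Rbm3/Rbm3-ps gained it with centring (-0.23, adjusted p = 0.0147) and animals 1 to 3 (-0.44, adjusted p = 0.0237). The waking effect of Cirbp in bound minus unbound RNA turned positive in animals 4 to 6 (0.094). In single states, turned signs for Rbm3/Rbm3-ps were 0.0047 (every probe set) and 0.091 (animals 4 to 6) in sleep, and 0.0030 (animals 4 to 6) in waking. Those for Cirbp after sleep deprivation were 0.0092 (every probe set) and 0.20 (animals 1 to 3), all given with no test. Leaving out 1 array gave -0.25 to 0.11 for the last, with a turned sign without bound sleep-deprived animal 4 (0.03) or the second unbound sleep-deprived pool (0.11). Cirbp minus Rbm3/Rbm3-ps in waking was -0.93 in animals 1 to 3 and -0.54 in animals 4 to 6, and -0.62 after sleep deprivation with the mean of the probe sets.

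Bound counts of features called (2040 in waking, 2599 after sleep deprivation, 1244 between them) were 87, 219 and 51 with dim genes left out, 941, 1477 and 585 in animals 1 to 3, and 638, 1134 and 143 in animals 4 to 6. They were 3065 and 1913 (first and last) under the block, and 3386, 4103 and 2164 with the animal set as a term. Unbound counts (1149, 341 and 138) were 0 under the block and without any 1 array, and 2940, 1260 and 622 with an intensity trend. Counts between fractions (12626, and 1018 and 890 for the effects) were 7147, 44 and 13 with dim genes left out. Those for the effects were 1823 and 1546 with array weights, and 502 to 536 and 447 to 505 without 1 unbound array of the states compared. The cause was not tested.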
